A study of Homo sapiens with 6 samples.

Results

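The MAP kinase phosphatases studied here are 10 genes of the DUSP (dual specificity phosphatase) family, chosen by gene symbol: DUSP1, DUSP2, DUSP3, DUSP4, DUSP5, DUSP6, DUSP7, DUSP8, DUSP10 and DUSP16. Of these, 8 had a row among the 22077 genes of the count table, and 7 passed the filter on low counts that left 14162 tested genes. DUSP8 and DUSP16 had no row and were not analysed here, and DUSP2 had too few counts to be tested. RNA-seq was performed on 3 cultures of hepatocellular carcinoma cells overexpressing TKT, a transketolase of the pentose phosphate pathway, and on 3 vector control cultures. TKT was introduced by transfection of a plasmid (pTSB02-GFP-PURO) followed by selection. The control samples, labelled wt in genotype, carry VC in their names, read here as vector control. The study's methods do not say whether they received an empty plasmid and selection. If they did not, effects of plasmid and selection cannot be told apart from those of TKT. Nothing in the sources says whether each culture is a clone or a pool, and introduced and endogenous TKT reads cannot be told apart. The study's Results name Huh7 cells, its Methods name HCCLM3 cells for the sequencing, and the labels give Hu7 as the cell line, so the line is taken here as Huh7 with that doubt.

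MAP kinases (ERK, JNK and p38) are switched on by phosphorylation of a threonine and a tyrosine, and the phosphatases encoded by these genes remove both phosphates. Nuclear inducible members (DUSP1, DUSP2, DUSP4, DUSP5) are transcribed within minutes to hours of a growth factor or stress signal, cytoplasmic ERK-specific members (DUSP6, DUSP7 and also DUSP9, which is outside the 10) act on ERK, and DUSP8, DUSP10 and DUSP16 prefer JNK and p38. DUSP3 is a small atypical enzyme without the MAP kinase docking domain of the others. Because several of these genes are themselves transcribed in response to MAP kinase signaling, their mRNAs are commonly read as feedback of the pathway.

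TKT itself lay between 469 and 515 CPM (counts scaled to library size, with TMM factors) in the control cultures and between 9392 and 9549 CPM in the TKT cultures, as the labels require. Libraries held between 30148788 and 37096156 counts. Of 8 hepatocyte markers, 7 were abundant in every culture, with ALB between 7801 and 8154 CPM, whereas APOB had at most 6 counts in any library. Their summed FPKM (fragments scaled to gene length and library size) ran from 5476 to 5598 in control and from 5692 to 5820 in TKT cultures, with FGB called higher (log2 fold change 0.50) and HNF4A lower (-0.15, a call lost without TKT replicate 1). The part of these shifts in the results was not tested. Of 3 markers of other cell types, PTPRC had no row, COL1A1 had between 6 and 29 counts and PECAM1 between 15.3 and 20.5 CPM, and both overlapped between groups. The replicate samples are labelled as separate biosamples, but nothing says that they were separate transfections, so errors describe the spread between these samples.

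The upstream sequences of the members came from RefSeq (GRCh38.p14), which had a window of 300 bases, 250 before and 50 after a transcription start, for 8 of the 10 genes and for 6 of those with counts. DUSP4 and DUSP5 had no window and were not searched. They are shown because DUSP1 and DUSP10 had the largest fold changes of the members and DUSP7 belongs to the contrasting cytoplasmic class. The 250 bases before the start were printed. Capitals mark matches to the searched motifs, on either strand. The first motif was the cyclic AMP response element, TGACGTCA. Its core is the pentamer TGACG. The AP-1 site was searched as TGANTCA. The E-box, which MYC proteins and others bind, was searched as CACGTG. The TATA box was searched as TATAAA, and the CArG box of serum response factor by its consensus. Bases that lie in an annotated exon are left out.
DUSP1, chr5:172771196-172771445, minus strand: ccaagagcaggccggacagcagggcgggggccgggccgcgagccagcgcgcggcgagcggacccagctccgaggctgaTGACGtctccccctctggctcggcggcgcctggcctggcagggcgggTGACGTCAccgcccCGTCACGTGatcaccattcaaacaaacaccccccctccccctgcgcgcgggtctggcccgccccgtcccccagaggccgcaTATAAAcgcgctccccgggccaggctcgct
DUSP10, chr1:221742177-221742339, minus strand: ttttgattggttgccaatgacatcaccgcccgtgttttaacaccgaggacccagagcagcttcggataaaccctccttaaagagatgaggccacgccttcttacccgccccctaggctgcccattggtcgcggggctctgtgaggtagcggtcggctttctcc
DUSP7, chr3:52056572-52056821, minus strand: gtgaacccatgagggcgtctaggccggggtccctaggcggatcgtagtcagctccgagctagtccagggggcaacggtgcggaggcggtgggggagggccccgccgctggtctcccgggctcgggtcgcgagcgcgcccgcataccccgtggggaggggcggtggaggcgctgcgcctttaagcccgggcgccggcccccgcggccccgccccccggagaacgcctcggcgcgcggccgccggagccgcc
In the DUSP1 window, the cyclic AMP response element stood from -125 to -118 relative to the start, the E-box from -108 to -103 and the TATA box from -30 to -25. The pentamer was found 4 times on either strand, of which 2 matches lie within the response element and 1 overlaps the E-box. Among the 6 members with counts, the response element and the TATA box were found in DUSP1 only, the E-box in DUSP1 and DUSP2, and the pentamer in DUSP1, DUSP3 and the downstream of 2 starts of DUSP10. DUSP8, which had no row of counts, also held the response element, from -118 to -111 and from -74 to -67. Neither the AP-1 site nor the CArG box was found in any of the 6. For DUSP6, all 250 bases before the start lie in annotated exons and within the annotated gene, so its window is not sequence upstream of that gene. Over all 35116 windows, the response element was present in 1.85%, the pentamer in 24.6%, the AP-1 site in 7.71%, the E-box in 7.26%, the TATA box in 11.5% and the CArG box in 1.29%. A match describes the letters of the window and shows no binding, and the absence of a match concerns only this window.

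Among the members, the nuclear inducible genes DUSP1, DUSP4 and DUSP5 and the JNK and p38 phosphatase DUSP10 were higher in TKT cultures, by 1.29-fold to 2.40-fold. The cytoplasmic ERK phosphatase DUSP6 was lower (0.869 of control), and DUSP7, at 0.896 of control, was not called. At an adjusted p under 0.05 in edgeR's quasi-likelihood test over all tested genes, 5 of the 7 tested members were called higher and 1 lower, beside 5.69% and 4.94% of all tested genes. With an absolute log2 fold change over 1 in addition, the thresholds in the study's methods, 2 members were called, beside 0.727% of all tested genes. The values of the 3 TKT and 3 control cultures did not overlap in 7 of 7 tested members, beside 28.0% of all tested genes. Of these, 5 were higher with TKT (14.1% of all tested genes) and 2 lower (13.9%). The family was chosen with fold changes of this same contrast known, so these counts and the values below are a description and test nothing. Since RNA came from whole cultures, a transcript raised in every cell and one raised in a share of the cells cannot be told apart.

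**Figure D1:**
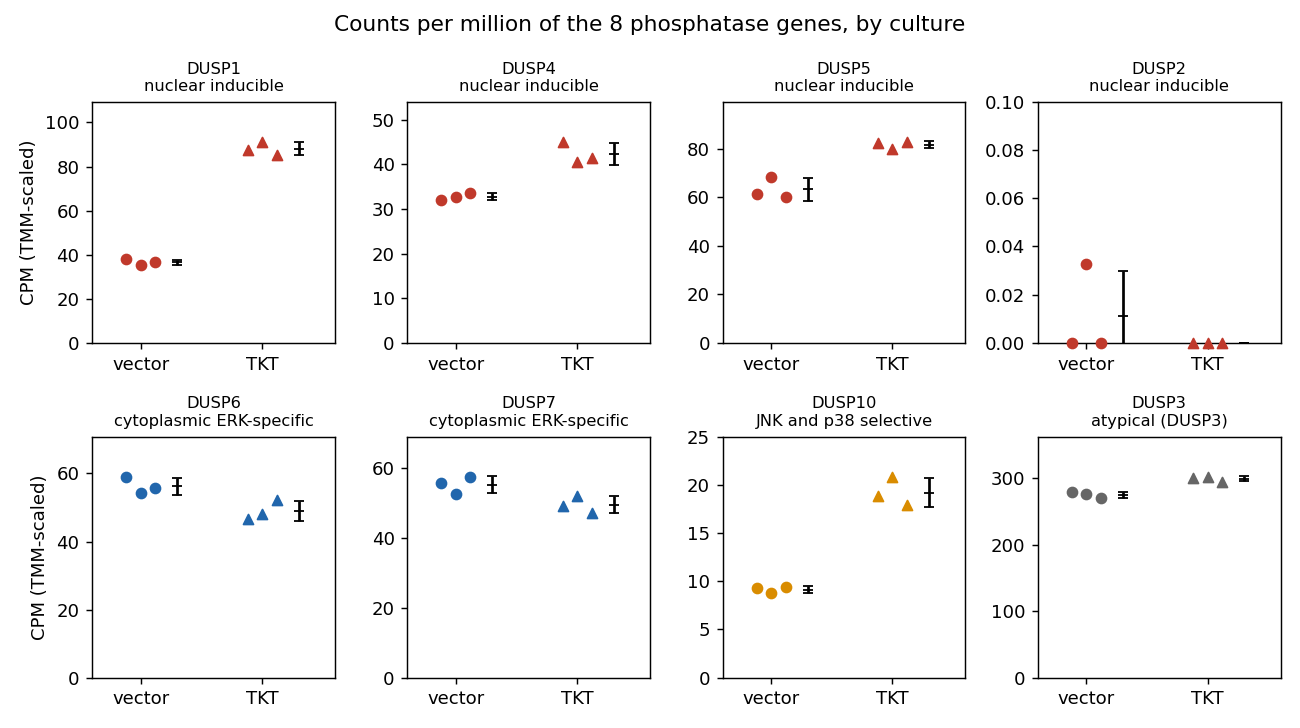
CPM (TMM-scaled, vertical axes from 0) of the 8 measured members in each of the 3 vector control cultures (circles) and 3 TKT cultures (triangles), with the mean and SD beside them. DUSP1 and DUSP10 lie apart between the groups, DUSP6 and DUSP7 lie lower with TKT, and DUSP2 is at 0 in all but 1 culture.

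DUSP1, also known as MKP-1, is an immediate-early nuclear phosphatase that acts on p38, JNK and ERK. Its CPM was 37.9, 35.5 and 36.5 in the control cultures and 87.7, 91.1 and 85.4 in the TKT cultures. The lowest TKT culture stood 2.25 times above the highest control culture, and within each group the values differed little, with a coefficient of variation of 3.18% in control and 3.29% in TKT cultures. The log2 fold change was 1.26 (standard error 0.05), a 2.40-fold difference. This was the largest change of the tested members, and it was past the threshold in all 15 alternative analyses, between 1.22 and 1.29.

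DUSP5 is a nuclear phosphatase specific for ERK and an inducible feedback gene of that kinase. Its CPM was 61.1, 68.4 and 60.0 in control and 82.1, 79.8 and 82.7 in TKT cultures. All TKT cultures exceeded all control cultures, although control replicate 2 stood above the other controls. DUSP4 (MKP-2), a nuclear inducible phosphatase of ERK and JNK, had 32.1, 32.6 and 33.6 CPM in control and 45.0, 40.5 and 41.4 CPM in TKT cultures. Here TKT replicate 1 was the highest, and again the groups did not overlap. The log2 fold changes of DUSP5 and DUSP4 were nearly equal, at 0.37 (standard error 0.06) for each, or 1.29-fold. Both were called in all 15 alternatives, over a range of 0.33 to 0.43 for DUSP5 and 0.31 to 0.40 for DUSP4.

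DUSP2 (PAC-1), the remaining nuclear inducible gene, is known mainly from blood cells. It had 1 count in control replicate 2 and 0 in the other 5 libraries, which is at or under a floor of 3 counts, so no fold change is given. The nuclear inducible class as measured in these cells was therefore DUSP1, DUSP4 and DUSP5.

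DUSP10 (MKP-5) acts on JNK and p38 and is found in nucleus and cytoplasm. Its counts were the lowest of the tested members, between 266 and 700 a library. The control cultures had 9.29, 8.76 and 9.39 CPM and the TKT cultures 18.9, 20.8 and 17.9 CPM. The lowest TKT culture was 1.90 times the highest control. The log2 fold change was 1.07 (standard error 0.10), or 110% higher, so that a change of 1 lies within its standard error. On the log2(FPKM + 1) scale, which understates changes of low genes, it was 0.88. It was past the adjusted p threshold in all 15 alternatives.

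**Figure D2:**
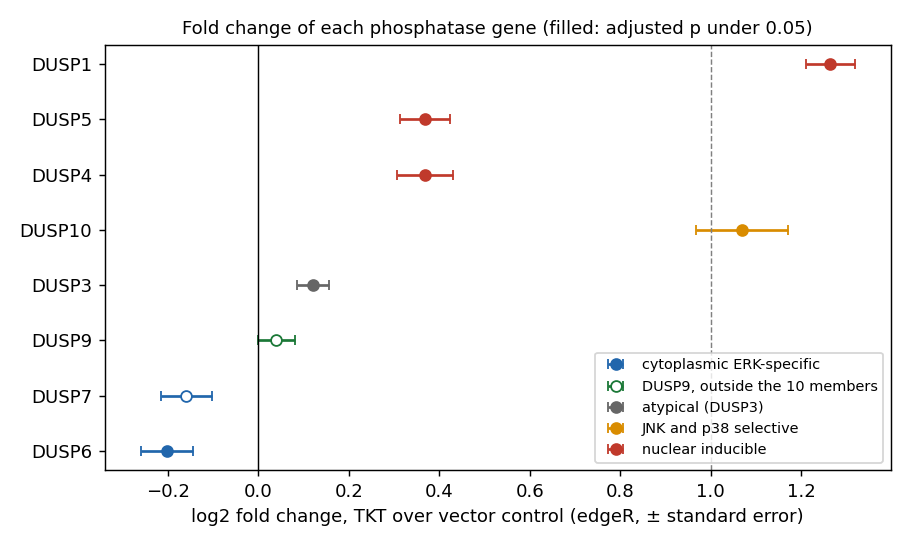
Log2 fold change of TKT over vector control cultures (horizontal axis, edgeR, bars show the standard error) for the 7 tested members and DUSP9, coloured by class, with filled points for an adjusted p under 0.05 and a dashed line at 1. The nuclear inducible genes and DUSP10 lie to the right, DUSP6 and DUSP7 to the left of 0.

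DUSP6 (MKP-3) is the cytoplasmic phosphatase of ERK whose transcript is widely used as a readout of ERK activity. ERK activity itself was not measured in these libraries. By western blot, the study reports more phosphorylated ERK in Huh7 cells overexpressing TKT. The CPM of DUSP6 was 59.0, 54.1 and 55.6 in control and 46.5, 48.1 and 52.2 in TKT cultures. The groups did not overlap, but TKT replicate 3 came close to control replicate 2. The log2 fold change was -0.20 (standard error 0.06), and DUSP6 was called lower. This call held in 8 of 15 alternatives. It was lost without control replicate 1 (log2 fold change -0.17), control replicate 3 (-0.21), TKT replicate 1 (-0.17) or TKT replicate 2 (-0.19), and with limma on FPKM. Of the exon bases of DUSP6 in GENCODE 29, 40.5% also belong to an antisense gene, AC024909.2. Strand options of the counting are not given in the sources used here, so reads of this partner cannot be told apart from those of DUSP6.

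DUSP7 (MKP-X), a cytoplasmic phosphatase with a preference for ERK, had 55.8, 52.7 and 57.6 CPM in control and 49.3, 52.2 and 47.3 CPM in TKT cultures. The highest TKT culture lay just under the lowest control culture. Its log2 fold change of -0.16 (standard error 0.06) did not pass the threshold, and it did so in 1 of 15 alternatives, without control replicate 2 (-0.19).

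DUSP3 (VHR), which can dephosphorylate ERK and JNK in spite of lacking a docking domain, was the most abundant of the 8 measured members. It had 279, 276 and 270 CPM in control and 300, 302 and 295 CPM in TKT cultures. The groups did not overlap and the difference was small, with a log2 fold change of 0.12 (standard error 0.04), or 8.68% higher. DUSP3 was called higher here and in 8 of 15 alternatives. Without control replicate 1 (0.13), control replicate 3 (0.11), TKT replicate 1 (0.12) or TKT replicate 2 (0.11) it was no longer called, and limma on FPKM did not call it either.

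The nuclear inducible and the cytoplasmic ERK-specific genes were then set side by side within each library, as the mean log2 CPM of DUSP1, DUSP2, DUSP4 and DUSP5 minus that of DUSP6 and DUSP7. This difference was -2.80, -2.52 and -2.79 in control and -2.01, -2.11 and -2.11 in TKT cultures. Every TKT culture was above every control culture. The negative sign does not order the classes, as DUSP2 lowers the nuclear mean and CPM is not scaled to gene length. Per length, the nuclear class summed to 47.4 FPKM in control and 81.5 in TKT cultures, beside 24.2 and 21.4 for the cytoplasmic class. The mean shift was 0.63 on the log2 scale, from -2.71 ± 0.16 to -2.08 ± 0.06 (SD, n = 3 each), made up of 0.45 from the nuclear class and -0.18 from the cytoplasmic class. These values include DUSP2, which had 1 count in all and otherwise enters the mean through the prior count alone. Without DUSP2, over DUSP1, DUSP4 and DUSP5, the shift was 0.85. The pooled SD over libraries was then 0.07, beside 0.12 with DUSP2. With log2 of the summed FPKM of each class it was 0.96, and with DUSP9 added to the cytoplasmic class, a choice made after seeing the data, it was 0.55. No p is given, as the classes were drawn with the members' changes known. Per culture, the FPKM of DUSP1 was 1.23, 1.26 and 1.26 times that of DUSP6 in control cells and 3.62, 3.64 and 3.14 times with TKT. By contrast, the ratio of DUSP6 to DUSP7 FPKM overlapped between groups, at 1.42 to 1.56 in control and 1.35 to 1.62 in TKT cultures.

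Levels of different genes can be compared only per gene length, so the deposited FPKM were used for their order. In control cultures DUSP3 led the members with 54.7 ± 1.124 FPKM (SD, n = 3), followed by DUSP5 with 24.8 ± 2.02, DUSP1 with 18.1 ± 0.47, DUSP6 with 14.5 ± 0.57 and DUSP7 with 9.71 ± 0.36. DUSP4 with 4.48 ± 0.10 FPKM and DUSP10 with 3.22 ± 0.09 came last before DUSP2. No pair of neighbours down to DUSP10 overlapped between cultures. In TKT cultures, DUSP1 with 43.6 ± 0.90 FPKM stood above DUSP5 with 32.1 ± 0.98, and DUSP10 with 6.77 ± 0.45 above DUSP4 with 5.80 ± 0.34. The ratio of DUSP1 to DUSP5 FPKM was between 0.65 and 0.78 in control and between 1.30 and 1.44 in TKT cultures, so this order turned in every culture. The gap between DUSP10 and DUSP4 in TKT cells was narrow, with a lowest DUSP10 value of 6.40 and a highest DUSP4 value of 6.16 FPKM.

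**Figure D3:**
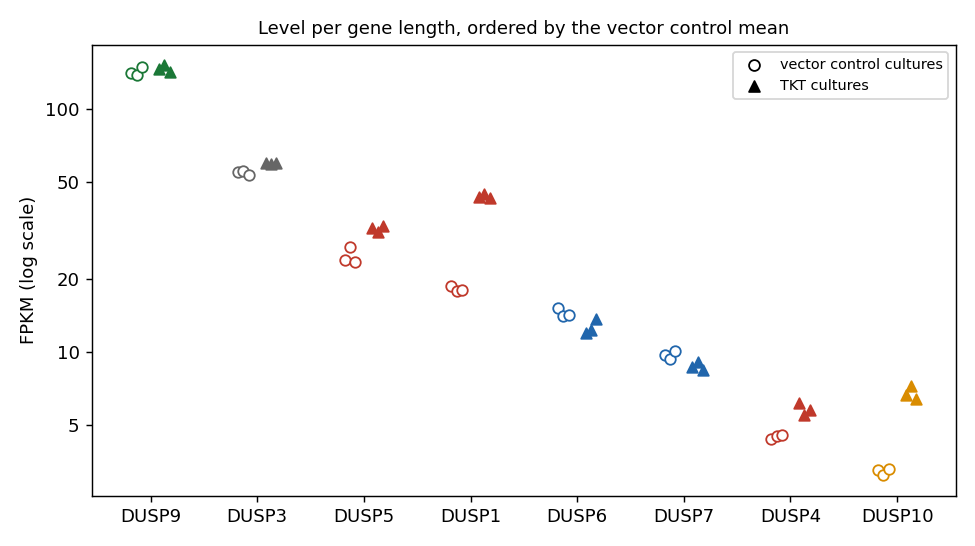
FPKM on a log axis of DUSP9 and the 7 tested members in vector control (open circles) and TKT cultures (filled triangles), ordered by the control mean. DUSP1 passes DUSP5 and DUSP10 passes DUSP4 in TKT cultures, while DUSP9 stays highest in both groups.

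DUSP9 (MKP-4), also a cytoplasmic phosphatase of the ERK class, is outside the 10 genes. Its FPKM was above that of each of the 8 measured members. It was 142 ± 5.63 FPKM in control and 147 ± 4.85 FPKM in TKT cultures (SD, n = 3 each). The CPM of DUSP9 was 392.2, 379.6 and 415.7 in control and 407.3, 425.4 and 388.1 in TKT cultures, and the groups overlapped. Its log2 fold change was 0.04 (standard error 0.04), which did not pass the threshold. Together with the 8 measured members, DUSP9 gave a summed FPKM of 272 ± 3.31 in control and 316 ± 4.68 in TKT cultures, of which DUSP9 made up 52.3% ± 1.43 and 46.4% ± 0.86. The nuclear inducible genes made up 17.4% ± 0.84 of this sum in control and 25.8% ± 0.46 with TKT (SD, n = 3). The summed FPKM of DUSP6 and DUSP7 was 24.2 ± 0.74 in control and 21.4 ± 0.74 in TKT cells, and with DUSP9 it was 166 ± 5.92 and 168 ± 4.52. Thus DUSP9 mRNA made up most of the cytoplasmic ERK-specific total, and that total overlapped between groups.

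**Figure D4:**
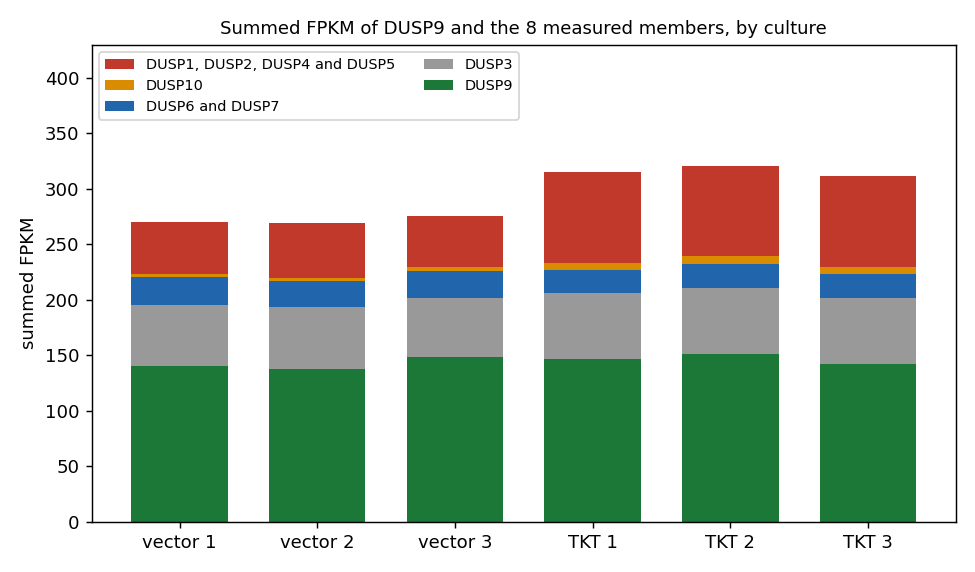
Summed FPKM (vertical axis from 0) of DUSP9 and the 8 measured members in each culture, stacked by class. The red part (DUSP1, DUSP2, DUSP4 and DUSP5) runs from 45.9 to 49.4 FPKM in control and from 81.2 to 81.8 FPKM in TKT cultures, and DUSP9 is the largest part of each bar.

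The substrates and other regulators of the pathway were described from gene lists written with earlier results of these data known, each beside a median log2 fold change of 0.00 over all tested genes, of which 5.69% were called higher, 4.94% lower and 10.6% in either direction. Of the MAP kinases, 11 of 13 were tested, 0 were called higher and 1 lower. This was MAPK12, a p38 kinase, at -0.18 (standard error 0.05), a call that was lost in 8 of 15 alternatives, among them 5 of the 6 that leave out a culture, all but that without control replicate 2. The median of the list was -0.05. Among 7 MAP kinase kinases, with a median of -0.05, MAP2K6, an activator of p38, fell to 28.6 CPM on TKT, at a log2 fold change of -0.37 (standard error 0.07), though limma on FPKM did not call it. No other MAP kinase kinase was called.

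Of 9 further MAP kinase phosphatases (DUSP9, tyrosine phosphatases and serine/threonine phosphatases), 7 were tested and 0 were called, beside 10.6% of all tested genes, with a median of 0.08 and a range of 0.02 to 0.84. The highest value was that of PTPRR, with 4 to 23 counts a library and a standard error of 0.67. Of 24 list entries for atypical DUSPs and relatives, some of them alternative names of the same gene, 15 were tested. Of these, 0 were called in either direction, beside the same 10.6%, with a median of 0.00 and a range of -0.31 to 0.58. Both ends of the range were genes with few counts, DUSP13 (23 to 73 a library) and DUSP19 (27 to 64 a library).

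Among 16 tested ERK output and feedback genes of 18, 4 were called higher and 2 lower, beside 5.69% and 4.94% of all tested genes, with a median near 0. The groups did not overlap in 11 of the 16, beside 28.0% of all tested genes. SPRY1, SPRY2, SPRY4, ETV1, ETV4 and ETV5 were lower with TKT, beside 13.9% of all tested genes. PHLDA1, CCND1, EPHA2, EGR1 and MYC were higher, beside 14.1%. Of these, SPRY1, SPRY4, ETV1, ETV5 and EGR1 were not called. PHLDA1, an inducible gene of ERK signaling, rose from 49.7 to 68.3 CPM (log2 fold change 0.46, standard error 0.05). EPHA2, a receptor tyrosine kinase, rose by 0.27 (standard error 0.04), and MYC by 0.21 (0.05). By qRT-PCR, another method, the study reports no regulation of MYC mRNA by TKT, and this difference was not tested. SPRY2, a Sprouty inhibitor of receptor signaling to ERK, fell by 0.22 (standard error 0.06), a call lost without control replicate 3 or TKT replicate 1 and with limma on FPKM. The other called genes were CCND1 (higher) and ETV4 (lower). Among the AU-rich mRNA decay and stability factors, which act on short-lived mRNAs such as that of DUSP1, 8 of 10 list entries were tested. The rest were other names of tested genes. ZFP36L1 was called higher at 0.19 (standard error 0.05) and HNRNPD lower at -0.13 (standard error 0.04). Both calls were lost without TKT replicate 1 and with limma on FPKM, that of ZFP36L1 also without control replicate 3, and that of HNRNPD also without control replicate 1, TKT replicate 2 or TKT replicate 3.

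**Figure D5:**
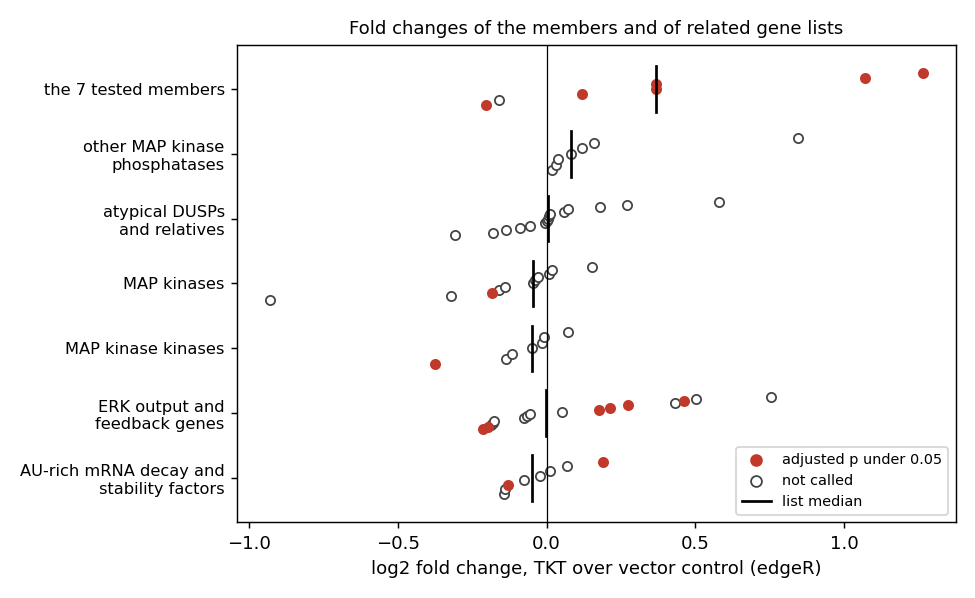
Log2 fold change (horizontal axis, edgeR) of each tested gene in the 7 tested members and 6 related lists, with red points for an adjusted p under 0.05, open points for genes not called and a black bar at the list median. The members spread from -0.20 to 1.26 around a median of 0.37, while the medians of the other lists lie between -0.05 and 0.08.

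The genes whose pattern over the 6 libraries was most like that of DUSP1 were sought among the 11286 tested genes that averaged 1 or more in log2 CPM, by the Euclidean distance of log2 CPM centred on each gene's own mean. The nearest were CXCL8, a neutrophil chemokine (distance 0.17), AKR1C2, an aldo-keto reductase (0.18), and DTNA, a dystrobrevin (0.18). DUSP10 was nearest to CXCL2, another chemokine (0.11), and then to CXCL8 (0.17) and DTNA (0.18). For scale, the distance of DUSP1 from a flat profile was 1.55 and that of DUSP10 was 1.31. CXCL2 rose from 11.0 to 23.6 CPM and CXCL8 from 57.3 to 128 CPM, beside 9.14 to 19.2 CPM for DUSP10. AKR1C2 belongs to a family of near-identical paralogs whose reads may be shared, and the log2 fold change of DTNA fell from 1.14 to 0.42 on the log2(FPKM + 1) scale. The 6 points share library and condition, so the likeness is a description over 6 libraries.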

How the data were processed

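Total RNA was sequenced as paired reads. Per the submitters' processing notes and the study's methods, the authors trimmed reads with fastp 0.22.0, aligned them to hg38 with HISAT2 2.1.0 and counted them with featureCounts. They deposited counts per gene symbol, not normalized, and FPKM. Annotation, strand and multi-mapping options are not given in the sources used here. No per-sample column was left unused (0 columns).

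The main test was that of edgeR 4.0.16 under R 4.3.3 (genes kept by filterByExpr at a minimum count of 10, TMM, robust quasi-likelihood test, Benjamini-Hochberg adjustment, no covariate). Standard errors are the log2 fold change over the root of F. Log2 CPM used a prior count of 2. Chi-square per degree of freedom was 7.24 to 9.99 within groups and 31.1 to 38.6 between them, so no library repeats another. Alternatives were DESeq2 1.42.0, limma 3.58.1 on FPKM, other factors and filters, the replicate block and each library left out. Scripts were tested on simulated counts. Members, lists and the rule for genes named (members, TKT, DUSP9, up to 4 called genes a list, the 3 genes most like DUSP1 and DUSP10) were chosen with earlier results of these data known. CCND1, ETV4, SPRY1, SPRY4, ETV1, ETV5 and EGR1 were named outside it, to complete a count, and PTPRR, DUSP13 and DUSP19 to name the ends of a range.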

Additional observations from a re-analysis of the deposited data

How the results depend on the processing

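Most alternatives changed 1 choice, but limma changed the test and the measure together, and DESeq2 the test, the factors and the filter (11787 genes tested). Over 15 alternatives for each of the 7 tested members, 90 of 105 values kept direction and side of the threshold, 14 lost the call (DUSP3 and DUSP6, 7 each), 1 gained it (DUSP7 without control replicate 2) and 0 reversed. The count of members called higher lay between 4 and 5 throughout. The count called lower was 0 with the replicate block and with limma on log2(FPKM + 1) or log2(FPKM + 0.1), and between 0 and 2 with each culture left out. Past an absolute log2 fold change of 1 there was 1 member with limma on log2(FPKM + 1), where DUSP10 dropped below 1. Over all genes, calls numbered 1505 in the main analysis, 697 with the replicate block, 827 and 826 with limma on FPKM (pseudocounts 1 and 0.1) and between 791 and 1586 with a culture left out, lowest without TKT replicate 1 and 881 without control replicate 1. Whether the replicate numbers pair the cultures is not known. Deviations of same-numbered cultures correlated between -0.03 and 0.02, and those of different-numbered cultures between -0.03 and 0.03. No shared deviation was seen, but a weak pairing can give such values too, so they do not settle it. Under the block, DUSP1, DUSP4, DUSP5 and DUSP10 stayed called, and the calls of DUSP3, DUSP6, MAPK12, SPRY2, ZFP36L1, HNRNPD and HNF4A were lost. The shift between the nuclear and cytoplasmic classes (0.63) was 0.96 from summed FPKM, 0.85 without DUSP2 and between 0.58 and 0.72 with a culture left out. With DUSP9 added to the cytoplasmic class it was 0.55, and with DUSP2 left out as well 0.77, both choices made after seeing the data. The cause of these differences was not tested, except that fewer samples or fewer degrees of freedom follow from leaving out a culture or adding the block. The effect of depth was not tested. DUSP2, with 1 count in all, gives no fold change at this depth.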
